A study of Mus musculus with 6 samples.

Results

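Imprinted genes are transcribed mainly or only from the copy inherited from a single parent. The set described here holds 46 mouse genes chosen by symbol from those known to be imprinted, 25 expressed from the paternal copy and 21 from the maternal copy. Of these, 43 were listed by symbol among the 15330 rows of the expression table, 24 paternally and 19 maternally expressed. Rtl1, Rian and Slc22a18 were not listed by symbol, and all 43 that were listed passed the filter on low values. Rian was present under its Ensembl identifier only. Its values are given below, but it is left out of the counts, medians and sums of expression. The rule that picked them uses their symbols and no expression value, but the list was drawn up with earlier results of these data known.

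RNA was sequenced from hearts dissected at embryonic day 9.5, in 3 libraries labelled wild-type and 3 labelled H2-URI d/d. The d/d embryos are homozygous for a deletion made with CRISPR-Cas9, which removes 373 kb upstream of the heart transcription factor gene Hand2, up to the nearby long non-coding RNA Uph. Replicates 1 and 2 of each group are labelled female and replicate 3 male, all in batch 1. Strain and whether a library held 1 heart or several are not given in the labels, so p-values here reflect only how these libraries vary, which may be technical. The data asked which transcripts differ when this interval is missing.

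Imprinting is mostly set by DNA methylation laid down in the egg or the sperm at control regions. Clusters of neighbouring genes often share such a region. In textbook accounts many paternally expressed genes promote fetal growth, and several maternally expressed ones, such as Cdkn1c, Grb10 and Phlda2, restrain it. Some genes are imprinted in every tissue that expresses them, others in the placenta, the brain or a particular transcript alone. Reads were not assigned to parental copies, so every value below is the sum over both copies, and a change of imprinting cannot be told apart from a change of transcription.

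Hand2 stood between 3789 and 4407 normalized counts in wild-type and between 1025 and 1163 in deletion libraries. Columns were matched to samples by the code in each sample title, although 4 of the 6 files are recorded under the other group. Under that record no gene passed in limma (0 of 15330, with 414 at an unadjusted p under 0.05). The libraries held 25583210 to 32043595 reads. All 7 cardiomyocyte markers were listed, with summed levels of 698638 to 810628 normalized counts in wild-type and 740496 to 813694 in deletion libraries. Summed globin and other erythroid markers ranged from 119368 to 348471 in wild-type and from 84646 to 451078 in deletion libraries, so these markers varied widely inside both groups. These were bulk samples, in which fewer cells of a type and less RNA per cell cannot be told apart.

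The sequences in front of 2 of the genes that fell, and the stretch shared by a divergent pair, are printed here because these loci carry the comparisons below. They come from RefSeq on GRCm38.p6, another build than the authors' GRCm39. They are written 5′ to 3′ with each CG dinucleotide, where DNA methylation can occur, in capitals. The 250 bases before the Phlda2 start site (chr7:143502525-143502774, minus strand) hold 21 CG, those before Ndn (chr7:62348027-62348276, plus strand) hold 5, and the 163 bases between the start sites of Peg3 and Usp29 (chr7:6730420-6730582, plus strand) hold 5.
Phlda2: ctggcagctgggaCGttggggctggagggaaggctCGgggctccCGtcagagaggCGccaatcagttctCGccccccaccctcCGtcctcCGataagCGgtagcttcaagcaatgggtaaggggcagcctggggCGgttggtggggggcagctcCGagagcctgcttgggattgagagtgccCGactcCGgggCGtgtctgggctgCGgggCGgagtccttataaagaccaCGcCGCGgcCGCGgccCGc
Ndn: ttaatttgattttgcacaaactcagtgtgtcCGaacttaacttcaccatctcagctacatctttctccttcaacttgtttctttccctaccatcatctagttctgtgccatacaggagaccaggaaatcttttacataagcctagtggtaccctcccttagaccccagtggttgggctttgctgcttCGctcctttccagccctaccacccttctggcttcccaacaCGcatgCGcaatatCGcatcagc
Peg3 to Usp29: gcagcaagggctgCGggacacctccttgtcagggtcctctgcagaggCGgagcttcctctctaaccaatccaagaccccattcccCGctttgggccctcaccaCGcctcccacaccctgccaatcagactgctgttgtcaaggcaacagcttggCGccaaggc
The Phlda2 stretch was rich in CG up to the start site, and the other sequences held fewer. Windows of 300 bases (250 before and 50 after the start site) held 26 CG for Phlda2. Those of Ndn, Peg3 and Usp29 held 11, 13 and 17, against a median of 7 over all such windows. Peg3 and Usp29 are transcribed away from each other from the ends of the last stretch.

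Imprinted transcripts were among the most abundant in these hearts. Per kb of the longest annotated transcript, 8 of 43 members lay above the 95th percentile of all genes and 31 above the median gene. H19, a maternally expressed non-coding RNA, headed the list at 77806 normalized counts per kb in wild-type and 67619 in deletion hearts. Mest, a paternally expressed hydrolase-fold protein, followed at 32533 and 27686. Next came Cdkn1c with 14618 and 9045, and Grb10 with 12909 and 12768. Cdkn1c stood above Grb10 in wild-type hearts and below it in deletion hearts. Gnas, which encodes the stimulatory G protein alpha subunit, had 6003 and 5501, and Peg3, a zinc finger protein, 4166 and 4755. At the low end, Magel2 had 12.7 and 17.3 and Sfmbt2 15.6 and 20.3 normalized counts per kb.

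**Figure D1:**
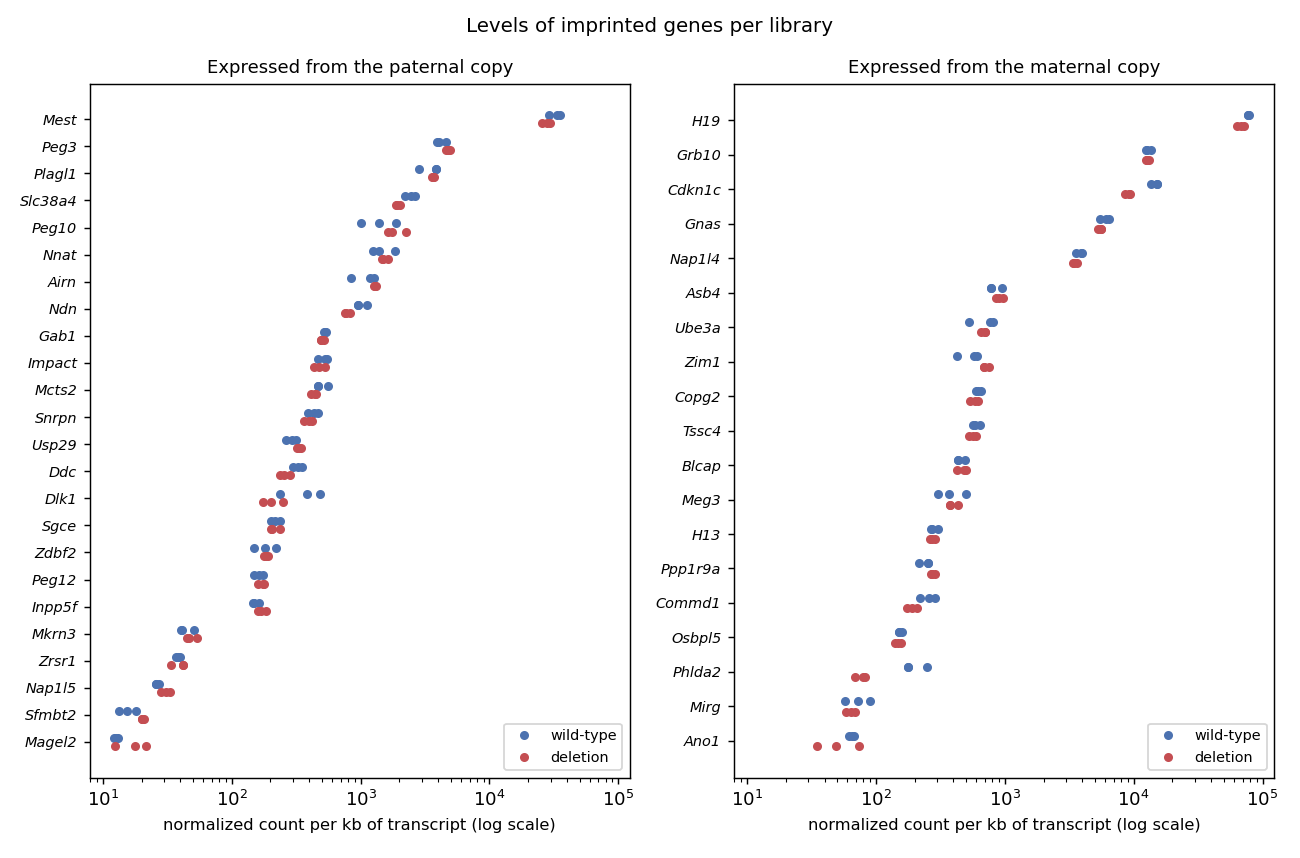
Level of each measured imprinted gene in every library, in normalized counts per kb of the longest transcript on a log axis, for genes expressed from the paternal (left) and the maternal (right) copy; points are libraries, blue wild-type and red deletion. Levels run from Magel2 at 12.7 to H19 at 77806 in wild-type means, and the colours lie well apart for Phlda2 and Cdkn1c.

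Against this spread of levels, 3 of 43 members passed the threshold of an adjusted p under 0.05 in limma, all lower in deletion hearts: Cdkn1c and Phlda2 of the maternally expressed genes and Ndn of the paternally expressed ones. Over all genes tested, 3.05% passed, 1.50% lower and 1.55% higher. No member was higher past the threshold (0 of 43), while 11 of 43, 4 higher and 7 lower, had an unadjusted p under 0.05, against 21.4% of all genes. The median log2 fold change, deletion minus wild-type, was 0.04 for the 24 paternally expressed genes and −0.08 for the 19 maternally expressed ones, against −0.0073 for all genes. Of the paternally expressed genes 10 had negative and 14 positive log2 fold changes, and of the maternally expressed genes 14 and 5. Many of the negative maternal genes are known to be imprinted in certain tissues or transcripts only. Such genes numbered 11, with 9 negative and 2 positive, while the other 8 maternal genes had 5 negative and 3 positive. The groups did not overlap for 14 of 43 members, 8 lower and 6 higher, against 27.4% of all genes (14.5% lower and 12.9% higher). Most members differed little: 26 of 43 had a log2 fold change within 0.2 of 0, as did 64.4% of all genes.

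**Figure D2:**
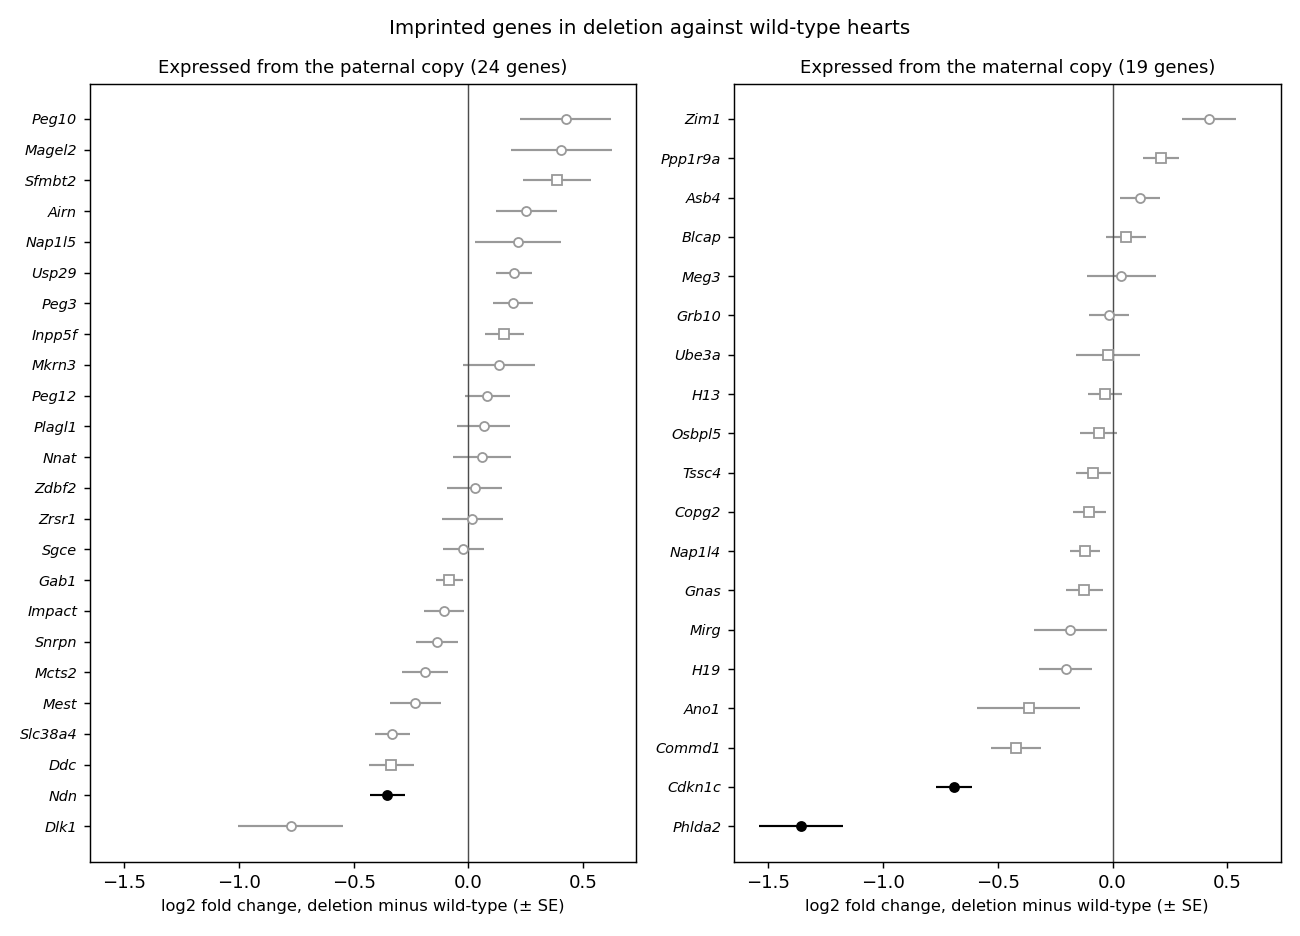
Log2 fold change of each measured imprinted gene, deletion minus wild-type, with its standard error from limma over 3 libraries per group; filled symbols passed an adjusted p under 0.05, and squares mark genes whose imprinting is known from certain tissues or transcripts only. The filled symbols are Cdkn1c at −0.69, Phlda2 at −1.36 and Ndn at −0.35.

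Cdkn1c and Phlda2 lie close together in the imprinted domain controlled by Kcnq1ot1, a paternally expressed non-coding RNA that silences this domain's genes on the paternal copy. Cdkn1c encodes p57Kip2, an inhibitor of cyclin-dependent kinases that restrains cell division. It stood at 28853, 25747 and 28764 normalized counts in wild-type replicates 1 to 3 and at 17584, 17833 and 16169 in the deletion libraries. Every deletion library was below every wild-type library, and the deletion mean was 61.9% of the wild-type mean. On the log2 scale the difference was −0.69 (SE 0.08; adjusted p = 0.00276 by limma), and an exact permutation of the 6 library values (two-sided) returned p = 0.1, the least possible with 3 against 3. In the 4 female libraries alone the value was −0.62 and did not pass (adjusted p = 0.101, limma).

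Phlda2, a pleckstrin homology domain protein best known for limiting growth of the placenta, had the steepest fall of the set. It was at 187, 134 and 134 normalized counts in the wild-type hearts, against 60.2, 62.2 and 51.8 in those with the deletion. The groups were again separate, with the wild-type mean 2.61 times that of the deletion. On the log2 scale this was a difference of −1.36 (SE 0.18; adjusted p = 0.00622, limma; exact two-sided permutation p = 0.1), and −1.36 in the female libraries, where it did not pass (adjusted p = 0.0829, limma). Phlda2 was 1 of the less abundant members, at 200 normalized counts per kb in wild-type against 14618 for Cdkn1c. Both genes passed in each of the 6 fits that left out 1 library.

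No other measured gene in the surrounding stretch passed the threshold. From H19 to Osbpl5 the table held 20 genes in genome order (RefSeq on GRCm38.p6), of which these 2 were called, both lower. Over all genes 3.05% were called, 1.50% lower. This stretch is wider than the Kcnq1ot1 domain, since it also takes in H19 and Igf2, which have a control region of their own. The other 18 had log2 fold changes between −0.28 and 0.55. The groups were separate for 4 of the 20, namely Cdkn1c, Phlda2, H19 and Igf2os, an antisense transcript at Igf2 (−0.23, adjusted p = 0.0615, limma). Among all genes 27.4% had separate groups, so this count does not set the stretch apart.

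Beside Phlda2, Nap1l4, a nucleosome assembly protein gene, had 9050, 8192 and 8927 normalized counts in wild-type against 8324, 7947 and 7790 in deletion libraries (log2 fold change −0.12, SE 0.07). Osbpl5, of the oxysterol-binding protein family, had 638, 608 and 605 against 629, 589 and 559 (−0.06). Tssc4, on the other side of Kcnq1, had 1110, 987 and 1020 against 925, 1033 and 984 (−0.08). In these 3 genes, imprinted chiefly in the placenta, the groups overlapped. Farther along the chromosome, the chloride channel gene Ano1 held 286, 300 and 311 in wild-type libraries. Its deletion libraries were spread around those values, at 161, 225 and 342 (−0.37, adjusted p = 0.385, limma).

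Kcnq1ot1 itself held 415, 1206 and 695 normalized counts in wild-type against 937, 1068 and 1085 in deletion libraries (log2 fold change 0.55, SE 0.30, adjusted p = 0.324, limma). The wild-type libraries were scattered around the deletion values, so no difference was detectable. Kcnq1, the potassium channel gene it overlaps in antisense, differed by −0.17 on the log2 scale (adjusted p = 0.7 by limma). Whether reads were counted by strand is not stated in the labels, so those of this pair cannot be told apart where they overlap.

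**Figure D3:**
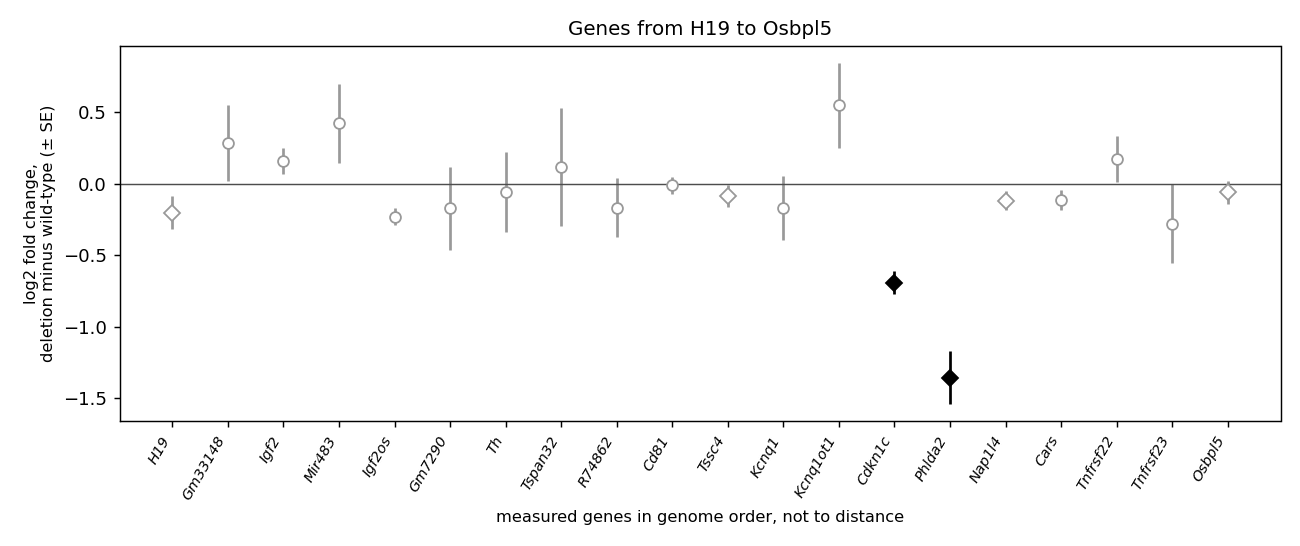
Log2 fold change, deletion minus wild-type, with its standard error (limma, 3 libraries per group) for the 20 measured genes from H19 to Osbpl5 in genome order, spaced evenly and not by distance. Diamonds are members of the set, circles other genes and filled symbols those with an adjusted p under 0.05: Cdkn1c and Phlda2, at −0.69 and −1.36, stand below the others, which lie between −0.28 and 0.55.

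Of 7 markers of cushion and other mesenchyme, all measured, 3 were called lower, Col3a1, Postn and Twist1, and 0 higher. Among all genes 1.50% were called lower and 1.55% higher. The summed level of the 7 markers was 7299 to 10459 normalized counts in wild-type and 3804 to 5764 in deletion libraries. The remaining 4 had log2 fold changes of −1.03 for Col1a1, −0.16 for Pdgfra, −0.04 for Prrx1 and 0.14 for Sox9. The part of these markers' cells in the lower Cdkn1c, Phlda2 and Ndn values was not tested. Of 7 cardiomyocyte markers 0 were called, with log2 fold changes between −0.22 and 0.29. Of 7 endocardial and endothelial markers Tek fell and Kdr rose. Emcn missed the threshold narrowly, at −0.39 with separate groups (adjusted p = 0.0505, limma). No epicardial (0 of 6) or pharyngeal epithelial marker (0 of 6) passed. Neither did any marker of neural cells (0 of 4) or of yolk sac and trophoblast (0 of 4). In that order, their median log2 fold changes were 0.35, 0.55, 0.56 and −0.299. Epicardial values ran from −0.12 to 0.88 and pharyngeal ones from −0.37 to 2.69. The epicardial markers Tcf21 (0.88, adjusted p = 0.0545, limma) and Tbx18 (0.72, adjusted p = 0.0738, limma) were higher without overlap. The placental markers Prl3d1 and Tpbpa were not among the rows.

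H19, which lies at the other end of the stretch and is regulated by a control region of its own together with Igf2, held 180193, 177598 and 175803 normalized counts in wild-type libraries. The deletion libraries held 144463, 164529 and 154743, each below the wild-type range. The log2 fold change of −0.20 (SE 0.12) did not pass (adjusted p = 0.341, limma; exact two-sided permutation p = 0.1). Igf2, the paternally expressed growth factor gene beside it, held 5790, 6338 and 5542 in wild-type against 5802, 7138 and 6825 in deletion libraries (log2 fold change 0.16, adjusted p = 0.338, limma), with overlapping groups.

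The summed level of the 19 maternally expressed genes was lower in every deletion library, at 289909 to 306061 normalized counts against 330394 to 337768 in wild-type. H19 made up 64.3% of the difference between the means and Cdkn1c 29.2%. Without these 2 genes the sums overlapped, at 123700 to 127862 in deletion and 123805 to 133201 in wild-type libraries. The 24 paternally expressed genes summed to 167397 to 180635 against 166868 to 196076, also overlapping. The difference in the maternal sum was thus carried mostly by 2 transcripts, of which only Cdkn1c passed the test.

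Among the paternally expressed genes Ndn was the single call. It encodes necdin, a MAGE family protein that restrains growth in neurons, and belongs to the cluster missing in Prader-Willi syndrome. Wild-type hearts had 4123, 3532 and 3541 normalized counts, and hearts with the deletion 3063, 2864 and 2817. All deletion values were below all wild-type values, with a mean 78.1% of wild-type. The difference was −0.35 on the log2 scale (SE 0.08; adjusted p = 0.0411 by limma; exact two-sided permutation p = 0.1). This call lay close to the threshold: it passed in 7 of 19 alternative fits and was lost without wild-type replicate 3 (adjusted p = 0.0821, limma) and without deletion replicate 1, 2 or 3 (adjusted p = 0.105, 0.172 and 0.151, limma).

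The neighbours of Ndn gave no such difference. Magel2, another MAGE gene, had 59, 56.9 and 60.4 normalized counts in wild-type against 58.1, 82.6 and 99.4 in deletion libraries, so its log2 fold change was positive at 0.40 (SE 0.22). Mkrn3, of the makorin ring finger family, had 103, 105 and 131 against 137, 119 and 116 (0.14). Peg12 had 432, 460 and 390 against 423, 471 and 462 (0.08). Snrpn, whose promoter is the control region of the cluster and which encodes a splicing protein, had 974, 813 and 904 against 824, 866 and 753 (−0.14). None of the 4 passed, and all had overlapping groups. Ube3a, the ubiquitin ligase gene that is maternally expressed in neurons, had 5209, 7626 and 8029 against 6892, 6428 and 6917 (−0.02), with wild-type replicate 1 the lowest of the 6.

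**Figure D4:**
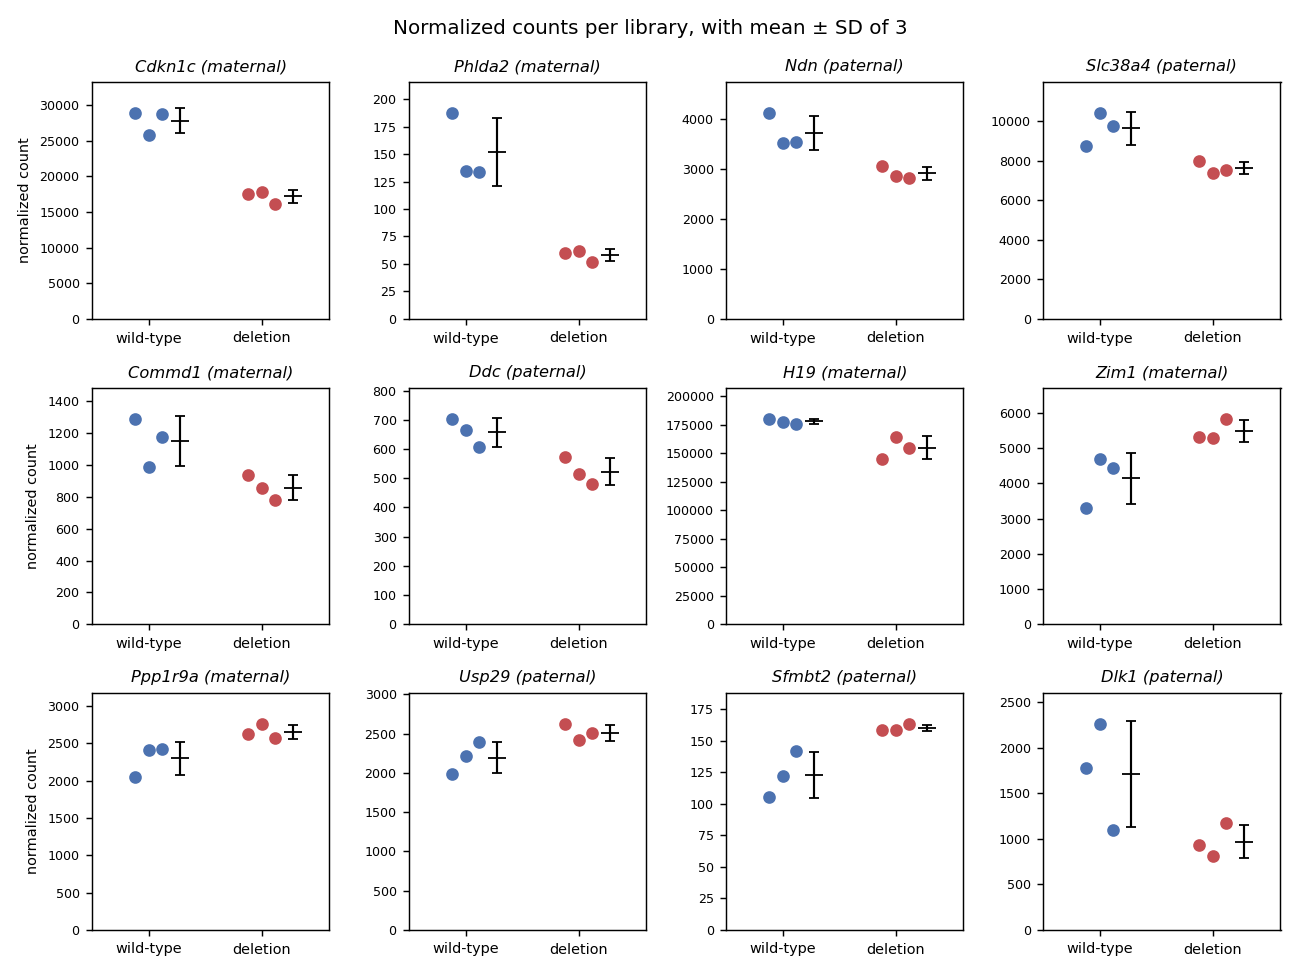
Normalized counts of 12 imprinted genes in each library (blue wild-type, red deletion; axes start at 0), with the mean and SD of 3 libraries per group as a black bar. Cdkn1c, Phlda2 and Ndn passed the test; the groups are separate in every panel except that of Dlk1, where wild-type replicate 3 lies among the deletion libraries.

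Several paternally expressed genes had separate groups without passing. Slc38a4, an amino acid transporter of embryo and placenta, missed the threshold narrowly, with 8758, 10411 and 9762 normalized counts in wild-type against 7977, 7408 and 7551 in deletion libraries (log2 fold change −0.33, SE 0.08, adjusted p = 0.0512, limma). It passed in 4 of 19 alternative fits, among them that without wild-type replicate 1 (adjusted p = 0.00992, limma). Ddc encodes aromatic L-amino acid decarboxylase, and a transcript with its own first exon is known to be paternally expressed in the embryonic heart. It had 704, 664 and 606 against 571, 514 and 480 (−0.33, adjusted p = 0.0897, limma). Gene-level values do not single out that transcript. Sfmbt2, a Polycomb group gene, had higher deletion values, at 158, 159 and 163 against 106, 122 and 142 (0.39, adjusted p = 0.169, limma). Mcts2 (−0.19) and Nap1l5 (0.22) also had separate groups, with unadjusted p-values of 0.0874 and 0.273 in limma.

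Dlk1, a transmembrane relative of the Notch ligands, had the most negative log2 fold change of the paternally expressed genes, −0.77, but with a large error (SE 0.23, adjusted p = 0.0973, limma). Its values, given after they were seen, were 1777, 2261 and 1099 normalized counts in wild-type against 932, 808 and 1172 in deletion libraries. Wild-type replicate 3, the male wild-type library, lay below deletion replicate 3, the male deletion library. Without wild-type replicate 3 the gene passed at −1.06 (adjusted p = 0.0228, limma), and in the female libraries at −1.21 (adjusted p = 0.028, limma). The maternally expressed non-coding RNAs of the same cluster had log2 fold changes of smaller size, and none passed. Meg3 had 4453, 7286 and 5398 in wild-type against 5495, 6297 and 5483 in deletion libraries (0.04), and Mirg, a host transcript of microRNAs, 344, 279 and 221 against 263, 224 and 246 (−0.18). Rian, which hosts small nucleolar RNAs and was matched through its Ensembl identifier, had 9110, 11716 and 10583 against 9152, 8243 and 8650 (−0.26, adjusted p = 0.144, limma).

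At the Peg3 cluster all 3 measured genes had higher deletion values without overlap, as did 12.9% of all genes, and none passed. Wild-type replicate 1 was the lowest library for each of them. Peg3 held 33862, 39689 and 35099 normalized counts in wild-type against 39971, 41287 and 42751 in deletion libraries (log2 fold change 0.19, adjusted p = 0.243, limma). Usp29, the deubiquitinase gene that starts from the other end of the printed stretch, held 1985, 2212 and 2386 against 2619, 2411 and 2501 (0.20, adjusted p = 0.184, limma), and its log2 fold change was 0.13 without wild-type replicate 1. The ratio of Peg3 to Usp29 was 16.6 ± 1.67 in wild-type against 16.5 ± 1.06 in deletion hearts (SD, n = 3). Zim1, the maternally expressed zinc finger gene next to Peg3, held 3306, 4679 and 4428 against 5314, 5292 and 5833 (0.42, adjusted p = 0.0842, limma). Zim1 was at 0.27 without wild-type replicate 1 (adjusted p = 0.0534, limma), and it passed without wild-type replicate 2 (0.52, adjusted p = 0.0324, limma) and with length and GC trends of the transcripts regressed out (0.39, adjusted p = 0.0259, limma).

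The Peg10 cluster was mixed. Peg10, a gene derived from a retrotransposon, varied among libraries, at 9323, 12567 and 6704 normalized counts in wild-type against 11699, 10889 and 14897 in deletion libraries (log2 fold change 0.42, SE 0.20, adjusted p = 0.255, limma). The value rested on single libraries: it was 0.65 without wild-type replicate 2 (adjusted p = 0.0424, limma), 0.19 without wild-type replicate 3 (adjusted p = 0.578, limma) and 0.06 in the female libraries (adjusted p = 0.893, limma). Sgce, the epsilon-sarcoglycan gene next to Peg10 and transcribed away from it, had 1048, 892 and 952 against 1044, 914 and 891 (−0.02). Of the maternally expressed genes there, Ppp1r9a, which encodes the actin-binding protein neurabin, had 2047, 2415 and 2429 against 2624, 2755 and 2570 (0.21, adjusted p = 0.165, limma) with separate groups and a log2 fold change of 0.13 without wild-type replicate 1. Asb4 had a log2 fold change of 0.12.

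Of the 3 most abundant paternally expressed genes, Mest and Plagl1 had overlapping groups and Peg3, above, did not pass either. Mest held 77041, 89401 and 93656 normalized counts in wild-type against 79210, 67885 and 74258 in deletion libraries (log2 fold change −0.23, SE 0.11, adjusted p = 0.271, limma). Plagl1, a zinc finger transcription factor of growth control, held 14997, 20375 and 20394 against 19682, 18793 and 19344 (0.07, SE 0.12). Copg2, the coatomer gene next to Mest, had a log2 fold change of −0.10. Among the remaining paternally expressed genes the values were 0.25 for Airn, the antisense RNA at Igf2r, 0.16 for the phosphatase Inpp5f, 0.06 for Nnat, 0.03 for Zdbf2, 0.02 for the splicing factor Zrsr1, −0.08 for the adaptor Gab1 and −0.11 for Impact. Igf2r had 51628, 60659 and 59310 against 53381, 54334 and 54066 (−0.08, adjusted p = 0.657, limma).

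Grb10, an adaptor that damps insulin and IGF receptor signalling, was the most even of the abundant maternally expressed genes. It held 63004, 64199 and 68794 normalized counts in wild-type against 66076, 63617 and 64163 in deletion libraries, a log2 fold change of −0.015 (SE 0.09). Commd1, a regulator of copper handling, had 1291, 986 and 1175 against 935, 856 and 781, with separate groups (−0.42, SE 0.11, adjusted p = 0.0703, limma). It passed in 1 of 19 alternative fits, that without wild-type replicate 2 (−0.53, adjusted p = 0.019, limma). In that fit 1161 genes were called, against 467 in the main fit. Zrsr1 lies inside Commd1, as Nnat lies inside Blcap, Mcts2 inside H13 and Nap1l5 inside Herc3, so the reads of each pair may have been split by the counting. The hosts Blcap (0.06) and H13 (−0.03) and the G protein gene Gnas (−0.12) did not pass.

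Of the other imprinted genes on a wider list, 35 of 50 were measured, and 1 rose and 0 fell, with a median log2 fold change of 0.04. Among all genes 1.55% were called higher, so a single call in a list of this size is near the background. The gene that rose was Axl, a receptor tyrosine kinase, at 1008, 1213 and 1056 normalized counts in wild-type against 1470, 1564 and 1685 in deletion libraries (log2 fold change 0.53, adjusted p = 0.0156, limma). Among factors that keep or remove imprint methylation, 21 of 25 were measured, and again 1 rose and 0 fell, against the same 1.55%. This was Tet2, an enzyme that oxidises methylated cytosine, at 776, 916 and 880 against 1138, 1126 and 1177 (0.42, adjusted p = 0.0253, limma). Tet1 (0.37, adjusted p = 0.0749, limma) and Tet3 (0.15, adjusted p = 0.255, limma) did not pass. Neither did the maintenance methyltransferase Dnmt1 (0.03), its partner Uhrf1 (0.0081), the imprint-binding zinc finger protein Zfp57 (−0.07) and its co-repressor Trim28 (−0.04). The whole list ranged from −0.14 to 0.42. DNA methylation was not measured in these samples.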

How the data were processed

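Hearts were profiled by poly(A) RNA sequencing from 300 ng of total RNA, with stranded TruSeq libraries per the labels' protocols. Per the submitters' processing notes, the build was GRCm39 (mm39) and the tools included the aligner STAR 2.7.9a, featureCounts from Subread 2.0.1 and also DESeq2 1.30.1. Annotation, strand setting and gene filter stand as not given in the sources used here. Each deposited value is a signal, the authors' normalized count per gene, which behaved as a count over a size factor: 100% of low values were whole reads (tolerance 0.01) after division by the library's step, which gave the read totals. Genes with a mean of at least 10 (all 15330) were log2-transformed after adding 1 and tested in R 4.3.3 with limma 3.58.1 (trended variance, two-sided), with Benjamini-Hochberg adjustment over all genes and 0.05 as threshold. Fold changes are differences on this scale, which understates those of low genes. The test was tried on simulated data. Lengths and GC content are those of the longest GENCODE M21 transcript, and symbols of 1382 of 1598 identifier rows came from a table of gene names.

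The members and lists were chosen with earlier results of these data known. Values in every library are given for members past the threshold, those without overlap at an unadjusted p under 0.05, the 3 highest per kb of each parental group and locus partners of called members.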

Additional observations from a re-analysis of the deposited data

How the results depend on the processing

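All alternatives were planned. Cdkn1c and Phlda2 passed in 17 of 19, failing in the female libraries and under the recorded file assignment. Members lower numbered 3, but 4 with a mean of at least 50 or a robust variance, 2 with quantile normalization, equal totals without haemoglobin, no intensity trend, sex as a covariate or the replicate block, 1 in the female libraries (Dlk1) and 0 under the recorded files. Members higher numbered 0, but 1 (Zim1, maternal) with length and GC trends regressed out. Paternally expressed members lower numbered 1, but 2 with a mean of at least 50 or a robust variance (Ndn and Slc38a4), and 0 with quantile normalization, equal totals without haemoglobin, no intensity trend, sex as a covariate, the replicate block or the recorded files. It was again 1, but another gene, with length and GC trends regressed out (Slc38a4, with Ndn at an adjusted p of 0.0575 in limma) and in the female libraries (Dlk1). Maternally expressed members lower numbered 2, but 0 in the female libraries and under the recorded files. Leaving out single libraries, 2 to 4 members were lower and 0 to 2 higher, 0 to 2 paternal members lower and 0 to 1 higher, and 2 to 3 maternal members lower and 0 to 1 higher. Fewer samples enter these fits and that of the female libraries. Under the replicate block 206 genes were called against 467, and of the members Cdkn1c and Phlda2. No pairing was assumed, since the deviations of same-numbered libraries correlated at −0.03, −0.12 and −0.14. Over all genes 230 were lower and 237 higher, against 209 and 393 with equal totals without haemoglobin and 297 and 186 with length and GC trends regressed out. All genes numbered 35 calls in the female libraries, 146 without an intensity trend, and 103 (without deletion replicate 2) to 1161 (without wild-type replicate 2) with a library left out.

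Under the recorded files the log2 fold change reversed for Cdkn1c (0.14), Phlda2 (0.46), Ndn (0.13), Slc38a4 (0.085), Ddc (0.11), Commd1 (0.026), Dlk1 (0.84), Usp29 (−0.15), Zim1 (−0.15), Ppp1r9a (−0.16) and Sfmbt2 (−0.25). Planned count models (edgeR, DESeq2) were not run: the deposited values are scaled, and in 3 of 6 libraries the smallest was worth 2 reads, so the reads recovered there were not accepted as counts.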

Other observations

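The ratio between partners was computed for 5 pairs of genes at imprinted loci, as a description with no test. That of Peg3 to Usp29 is given above. The ratio of H19 to Igf2, which share enhancers and a control region, had separate groups, as H19 already had alone. It averaged 30.3 ± 1.99 in wild-type hearts against 23.5 ± 1.19 with the deletion (SD, n = 3). Neither gene passed the test, and 27.4% of all single genes had separate groups. The ratio of Meg3 to Dlk1 averaged 3.55 ± 1.24 against 6.12 ± 1.57 (SD, n = 3), and that of Peg10 to Sgce ran from 7.04 to 14.1 against 11.2 to 16.7, both with overlapping groups. The ratio of Cdkn1c to Kcnq1ot1 averaged 44.1 ± 24.2 against 16.8 ± 1.93, with separate groups and a wide wild-type spread. Cdkn1c alone already had separate groups, so this ratio in part restates that difference.

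RefSeq promoter windows of 300 bases (250 before and 50 after the start site, GRCm38.p6) were found for 39 of 46 members, 60 windows in all, some of them overlapping or of the same gene. They held a median of 15 CG, against 7 in all 32851 windows. The letters TGCCGC, which the imprint-binding protein Zfp57 recognises when methylated, were found on either strand in 14 of 60 windows (23.3%), against 11.6% of all. CATCTG, an E-box of the kind bound by Hand2 and chosen after the values were seen, was found on either strand in 7 of 60 (11.7%), against 17.2% of all. CG content was not matched in these counts. Neither motif was in the printed stretches before Phlda2 and Ndn or between Peg3 and Usp29.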
